A study of Mus musculus with 2 samples.

Results

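Fibroblasts of the meninges were picked out of dissociated cerebral cortex of mouse embryos by the messenger RNAs they carried. A cell counted as a fibroblast when at least 3 of the 6 genes *Col1a1*, *Col1a2*, *Dcn*, *Lum*, *Foxc1* and *Aldh1a2* were detected in it and the 4 genes *Cldn5*, *Rgs5*, *Neurod6* and *Gad2* were all at 0. These 10 genes chose the cells, and their levels are given below as a description, with no test. The rule found 89 cells among the 16213 cells kept, 25 in library 1 and 64 in library 2. All cells came from embryonic day 16.5 embryos that were wild type (WT) controls of the EomesDot (*Eomes-Cre*) mouse line, which the study describes as C57BL6/J embryos. The 2 libraries form 1 group, so that the comparisons are between kinds of cells within each library and not between treatments. Whether a library holds 1 embryo or several, and how much of the meninges stayed on the cortex at dissection, is not given in the sources used here. The p-values therefore measure only how far the differences between kinds of cells vary between these 2 libraries, which may be technical. Shifts that all cells of a library share are taken out, and the variation is pooled over classes and in part over genes.

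The meninges are the sheets of connective tissue that wrap the brain. Their fibroblasts form an inner pia that lays down the basement membrane to which the endfeet of radial glia attach, an arachnoid with a barrier of joined cells, and an outer dura towards the skull. In the developing forebrain they are known as a source of the chemokine Cxcl12, of retinoic acid and of bone morphogenetic proteins. Mural cells, which wrap vessels, and endothelial cells, which line them, also make basement membrane, and they are the 2 kinds of cells with which fibroblasts were compared beside the rest of the cortex.

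The files held 9049 barcodes with 46398156 unique molecular identifiers (UMIs, counted molecules) in library 1 and 13556 barcodes with 64324236 UMIs in library 2, over 32285 listed genes. Cells were kept with 1500 to 60000 UMIs and under 10% mitochondrial UMIs. Fibroblasts made up 0.419% of the kept cells of library 1 (95% exact binomial interval 0.271 to 0.618%) and 0.625% of those of library 2 (0.481 to 0.797%), and these intervals cover counting error only. Their median depth was 12487 and 9122.5 UMIs, against 5650 and 4907.5 in all other cells, and their summed counts were 347535 and 647429 UMIs. The libraries shared 40 barcodes, none of which was a fibroblast in both. Of the 432 and 1111 cells with the highest doublet scores, 0 in library 1 and 26 in library 2 were fibroblasts, and these stayed in. These numbers follow from an assumed rate of 0.8% per 1000 barcodes, whereas Scrublet's automatic threshold marked 0 and 345 cells, with 0 and 1 fibroblasts among them. With the 432 and 1111 cells removed the shares were 0.452% and 0.416%, so that the order of the libraries turned. Levels below are CPM, the UMIs of a gene in the summed cells of a class scaled to a total of 1000000 UMIs, always given for library 1 and then library 2. In the fibroblast sums 1 UMI is 2.88 CPM in library 1 and 1.54 CPM in library 2, so that levels of a few CPM rest on single counts.

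The genes that chose the cells were detected in the fibroblasts of both libraries. *Dcn*, which encodes the proteoglycan decorin, stood at 1836 and 1937 CPM and was found in all 89 cells. *Col1a2* and *Col1a1*, the chains of type I collagen, stood at 1335 and 1664 CPM and at 702 and 990.1 CPM. *Lum* stood at 414 and 437 CPM, *Foxc1*, a forkhead factor of the meninges, at 207 and 153 CPM, and *Aldh1a2*, which makes retinoic acid, at 311 and 222 CPM. The number of the 6 genes found per cell was 5 or 6 in every fibroblast of library 1, whereas in library 2 it was 3 in 6 cells, 4 in 11 cells, 5 in 23 cells and 6 in 24 cells.

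Markers of other cells were counted in the fibroblasts as a description. Of 8 genes of microglia and macrophages, 5 were at 0 in the fibroblasts and *Cx3cr1*, *Csf1r* and *Tyrobp* were not, and the 8 summed to 11.5 and 9.27 CPM. The 6 mural genes, of which *Notch3*, *Cspg4*, *Higd1b* and *Kcnj8* were the highest, summed to 46.0 and 38.6 CPM, against 9192 and 8321 CPM in mural cells. These 6 genes chose the mural class and *Rgs5* is at 0 in fibroblasts by the rule, so this gap is set by the choice of cells. The 7 excitatory neuron genes (*Bcl11b*, *Neurod2* and *Tbr1* among the highest) summed to 5.75 and 30.9 CPM and the 8 GABAergic neuron genes (highest *Gad1*, *Dlx1*, *Dlx2* and *Lhx6*) to 5.75 and 7.72 CPM, against 1902 and 1841 CPM and 809 and 788 CPM in the other cells. The latter sums include *Neurod6* (505 and 505 CPM) and *Gad2* (169.7 and 165 CPM), which the rule sets to 0 in fibroblasts. As the rule bars every cell with either gene, low levels of the other neuron genes are also set in part by the choice of cells. The 5 genes of Schwann cells and other crest-derived glia summed to 0 and 3.09 CPM, with all counts from *Sox10* and *Erbb3* and *Foxd3* at 0, and the 6 intermediate progenitor genes (highest *Btg2*, *Neurog2* and *Insm1*) to 34.5 and 44.8 CPM, with *Eomes* at 0. The 7 skull and cartilage genes (highest *Alpl*, *Runx2*, *Sox9* and *Col2a1*) summed to 37.4 and 49.4 CPM, with *Ibsp* and *Acan* at 0. The 7 muscle genes (highest *Tagln*, *Myh11* and *Acta2*, which vessel walls share) summed to 74.8 and 43.2 CPM, with *Myod1*, *Myf5*, *Pax3* and *Pax7* at 0. The 6 choroid plexus genes summed to 51.8 and 68.0 CPM, of which the water channel gene *Aqp1* held 37.4 and 34.0 and *Ttr* 2.88 and 21.6, ahead of *Kcnj13* and *Clic6*, and the 5 oligodendrocyte lineage genes to 178 and 235 CPM, of which *Pdgfra*, which fibroblasts also use, held 167 and 215 and *Cspg4*, *Olig1* and *Olig2* the rest of note. The 8 radial glia genes reached 1913 and 1810.2 CPM, close to the 1844 and 1888 CPM of the other cells, and *Vim*, which mesenchyme shares with radial glia, made up 1223 and 805 of it. *Slc1a3*, a glutamate transporter of radial glia, held 596 and 581 CPM and was called higher in fibroblasts than in the other cells (2.43 ± 0.18 in log2), endothelial cells (3.89 ± 0.25) and mural cells (6.04 ± 0.37), while 5 of the 8 were lower than in the other cells.

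Transcripts of neurons and of red blood cells were also counted in fibroblasts. *Stmn2*, a gene of all neurons, stood at 109 and 129.7 CPM in fibroblasts, at 136 and 176 in endothelial cells and at 124 and 160.2 in mural cells, against 1014 and 1215 in the other cells, so that the 3 non-neural classes held it at like levels. The 8 genes of neurons in general, *Gap43*, *Tubb3* and *Stmn3* among the highest, summed to 308 and 406 CPM in fibroblasts. The 7 erythroid genes summed to 279 and 1859.7 CPM, and the globin gene *Hbb-bs* alone stood at 132 and 1013 CPM, followed by *Hba-a1*, *Hbb-bt* and *Hba-a2*, and 1 fibroblast of library 2 held 440 of the 656 *Hbb-bs* UMIs and 159 of the 222 *Hba-a1* UMIs of that library. The part of this RNA in the results below was not tested.

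At the edge of the rule, the 6 cells with exactly 3 of the 6 genes carried *Col3a1* at 724 CPM and *Cxcl12* at 905 CPM, from 33135 UMIs. The 10 cells with 2 of the 6 genes, just outside, carried *Col3a1* at 323 CPM and *Cxcl12* at 61.6 CPM, and no UMI of *Slc6a13*. A further 70 cells had 3 or more of the 6 genes but also a UMI of an absent gene, *Neurod6* in 41 of them, *Gad2* in 19, *Cldn5* in 15 and *Rgs5* in 6. In 37 of the 70 this was a single UMI, and these 37 cells carried *Col3a1* at 1991 CPM and *Igf2* at 1148 CPM, against 2039 and 1347 CPM over all fibroblasts. The rule puts the 70 among the other cells, where they held 70.0% of the *Col3a1* UMIs, 67.4% of those of *Slc6a13* and 40.8% of those of *Igf2*. Levels of fibroblast genes in the other cells therefore include these 70 cells.

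Counts were summed per library and class, which gave 8 sums (fibroblasts, endothelial cells, mural cells and all other cells in each library), and were tested by edgeR's quasi-likelihood method in 1 model with terms for class and library. A gene was called at a Benjamini-Hochberg adjusted p under 0.05 over all genes tested, and the 20 genes that define the classes were left out of every count. Endothelial cells (27 and 77 cells) and mural cells (27 and 42 cells) were taken by their own marker rules. Of 18355 genes, 2546 (13.9%) were higher in fibroblasts than in the other cells and 3084 (16.8%) lower. Against endothelial cells 1413 (7.70%) were higher and 1235 (6.73%) lower, and against mural cells 916 (4.99%) were higher and 684 (3.73%) lower. The median log2 difference over all genes was -0.42, 0.0030 and 0.04 in the 3 comparisons. The classes were chosen on genes measured in the same cells, and the 3 comparisons share the fibroblast sums, so these calls describe the chosen classes and are not 3 independent results. With cells under 5% mitochondrial UMIs, which left 5 and 27 fibroblasts, the genes higher numbered 1099, 540 and 338 and those lower 1412, 479 and 240 in the same 3 comparisons. Log2 differences are given with a standard error (SE). It was taken as the size of the difference divided by the square root of edgeR's F statistic. Where a class had no count of a gene in either library, a bound was set with 3 counts over both libraries of that class.

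Genes of the interstitial matrix, the collagens, fibrillins and proteoglycans that fill connective tissue, were higher in fibroblasts or not called. Of 36 listed genes 35 were tested, and 33 were higher than in the other cells, 31 than in endothelial cells and 24 than in mural cells, with none lower in any of the 3. The list's median log2 difference was 4.60, 4.94 (4.66 with genes absent from endothelial cells at their bound) and 2.81. *Col3a1*, the type III collagen chain, stood at 1801 and 2167 CPM in fibroblasts, at 264 and 373 in mural cells, at 0 and 12.4 in endothelial cells and at 9.75 and 24.1 in the other cells. The order was the same in both libraries, and the log2 difference was 2.83 ± 0.20 against mural cells and 7.05 ± 0.21 against the other cells (edgeR adjusted p = 2.7e-44 and 2.6e-238).

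Several members separated fibroblasts from mural cells as well as from endothelium. *Mfap4*, a protein of elastic microfibrils, stood at 253 and 456 CPM in fibroblasts and had no count in mural cells, at least 64.5-fold higher. *Fbn2*, a fibrillin of embryonic tissue, stood at 478 and 508 CPM in fibroblasts and at 85.2 and 168 in mural cells, and had no count in endothelial cells, at least 159-fold higher. *Ogn*, the proteoglycan osteoglycin, stood at 432 and 355 CPM, with a log2 difference of 3.21 ± 0.29 against mural cells. *Col6a1*, a chain of type VI collagen, stood at 196 and 202 CPM in fibroblasts, had no count in endothelial cells, at least 64.0-fold higher, and had 1 count in mural cells.

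Of the most abundant members, *Sparc* and *Serpinh1* were not called in every comparison. *Sparc*, a collagen-binding glycoprotein, was the highest of the list at 2267 and 2221 CPM in fibroblasts, and endothelial cells held 2291 and 2507, a log2 difference of -0.02 ± 0.16 that was not called. *Serpinh1*, the chaperone of collagen folding, stood at 969.7 and 1036 CPM, with 1.12 ± 0.18 against endothelial cells and an uncalled 0.47 ± 0.18 against mural cells. *Mfap2* stood at 363 and 646 CPM and was called higher in all 3 comparisons. *Tnc*, tenascin C, stood at 8.63 and 100.4 CPM in fibroblasts, and 1 cell of library 2 held 42 of its 65 UMIs there.

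**Figure D1:**
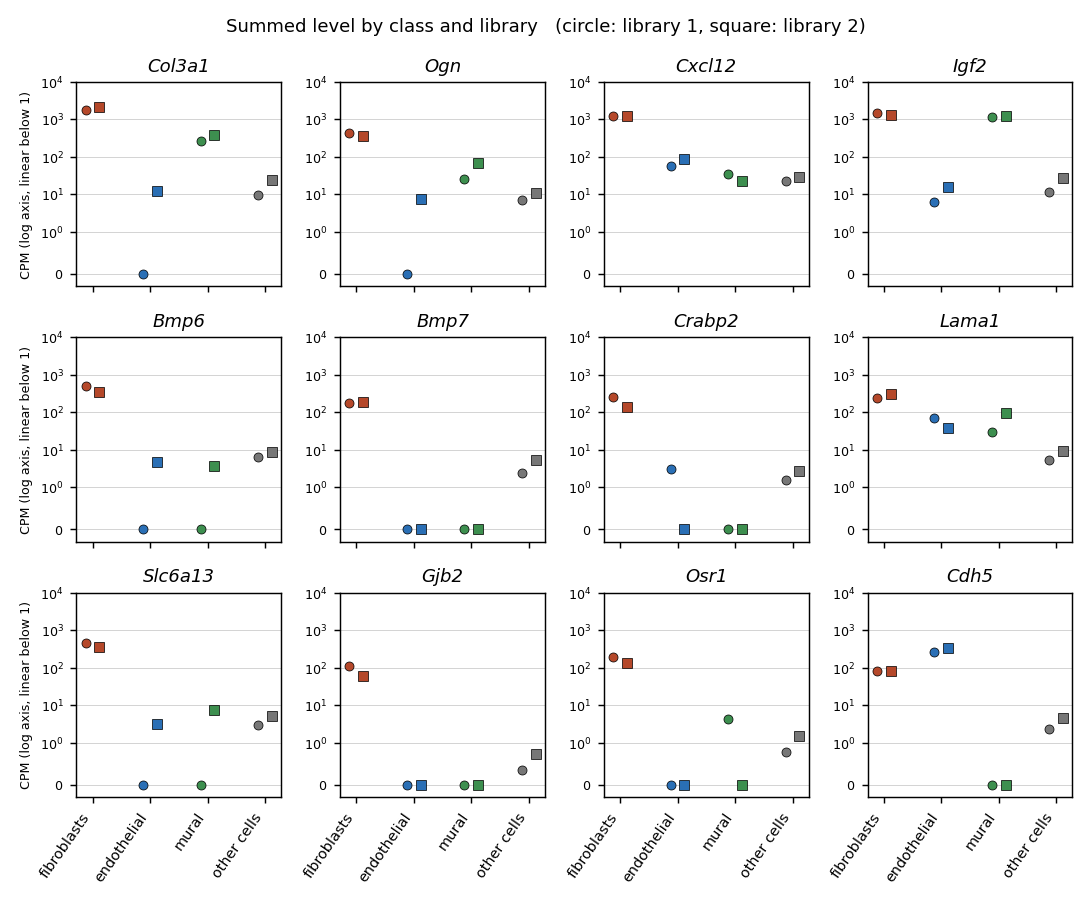
Summed level (CPM, log axis, linear below 1) of 12 genes in fibroblasts, endothelial cells, mural cells and other cells, circles for library 1 and squares for library 2. Both libraries give the fibroblasts the highest level of Col3a1, Cxcl12, Bmp7, Crabp2 and Gjb2, while Igf2 is nearly as high in mural cells and Cdh5 is higher in endothelial cells.

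Basement membrane genes, which fibroblasts share with the vessel wall, were split by chain. All 21 listed genes were tested, and 17 were higher in fibroblasts than in the other cells and none lower. Against endothelial cells 11 were higher and 4 lower, and against mural cells 7 were higher and 7 lower, with medians of 4.57, 0.85 and 0.32. *Lama1*, the laminin chain of early and pial basement membranes, stood at 242 and 315 CPM in fibroblasts, at 69.4 and 37.3 in endothelial cells and at 29.8 and 96.9 in mural cells, with log2 differences of 2.62 ± 0.27 and 2.28 ± 0.29. *Lama2* stood at 285 and 286 CPM and had no count in endothelial cells, at least 91.4-fold higher. *Lama4*, the laminin chain of vessel walls, went the other way, with 178 and 222 CPM in fibroblasts, 252 and 389 in endothelial cells and 482 and 473 in mural cells. *Nid1*, the linker nidogen, was higher than in endothelial cells (1.07 ± 0.21) and lower than in mural cells (-0.65 ± 0.20). *Fn1*, fibronectin, stood at 383 and 314 CPM in fibroblasts and 256 and 314 in endothelial cells, 0.34 ± 0.20 and not called, and was higher than in mural cells by 1.62 ± 0.24.

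Type IV collagen, the network of the basement membrane, was split by gene pair. *Col4a1* and *Col4a2* encode the chains found in every basement membrane, and their genes lie head to head and overlap on chromosome 8. *Col4a1* stood at 834 and 990.1 CPM in fibroblasts, at 543 and 774 in endothelial cells and at 2621 and 2918 in mural cells, and was lower than in mural cells, with a log2 difference of -1.45 ± 0.17. *Col4a2* stood at 420.1 and 587 CPM in fibroblasts, at 514 and 620.1 in endothelial cells and at 1419 and 1472 in mural cells (-1.38 ± 0.18). The 2 genes of the other pair, *Col4a5* and *Col4a6*, encode chains of a more restricted network and lie head to head on chromosome X with 1274 bases between them. *Col4a5* stood at 181 and 334 CPM in fibroblasts, at 0 and 3.11 in endothelial cells and at 8.52 and 3.73 in mural cells, which is 47.0-fold (95% counting interval 15.9 to 229) over the 3 mural counts. *Col4a6* stood at 144 and 176 CPM and had no count in endothelial or mural cells, at least 52.8-fold and 27.6-fold higher. Both chains of the second pair were thus highest in fibroblasts and both of the first in mural cells, in each library.

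The windows upstream of *Col4a5* and *Col4a6* are shown because these neighbouring genes were both higher in fibroblasts than in each other class. They are RefSeq sequences of build GRCm38.p6, which the submitters' name mm10 also denotes, from 250 to 51 bases before the transcript start that the promoter table uses, which is not the outer limit of the gene from which the 1274 bases were counted. *Col4a5* lies on the forward strand with its window at chrX:141475169-141475368, and *Col4a6* on the reverse strand at chrX:141474127-141474326. Capitals mark a CCAAT box, the letters CCAAT or on the other strand ATTGG.
Col4a5: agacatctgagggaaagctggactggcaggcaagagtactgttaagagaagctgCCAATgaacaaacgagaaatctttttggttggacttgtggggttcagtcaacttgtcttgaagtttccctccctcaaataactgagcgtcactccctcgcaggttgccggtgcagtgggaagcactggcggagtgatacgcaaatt
Col4a6: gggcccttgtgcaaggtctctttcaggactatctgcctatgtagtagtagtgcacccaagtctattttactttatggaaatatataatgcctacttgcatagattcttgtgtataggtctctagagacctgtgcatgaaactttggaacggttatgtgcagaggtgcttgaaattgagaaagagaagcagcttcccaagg
The *Col4a5* window held 1 CCAAT box, which 28.4% of all 32851 RefSeq windows of the same length hold, and the *Col4a6* window held none. Neither held a GC box (GGGCGG or CCGCCC, in 24.6% of windows) or a TATA box (TATAAA or TTTATA, in 9.14%). The GC content was 49.5% and 42.5%, against a median of 51.5% over all windows.

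**Figure D2:**
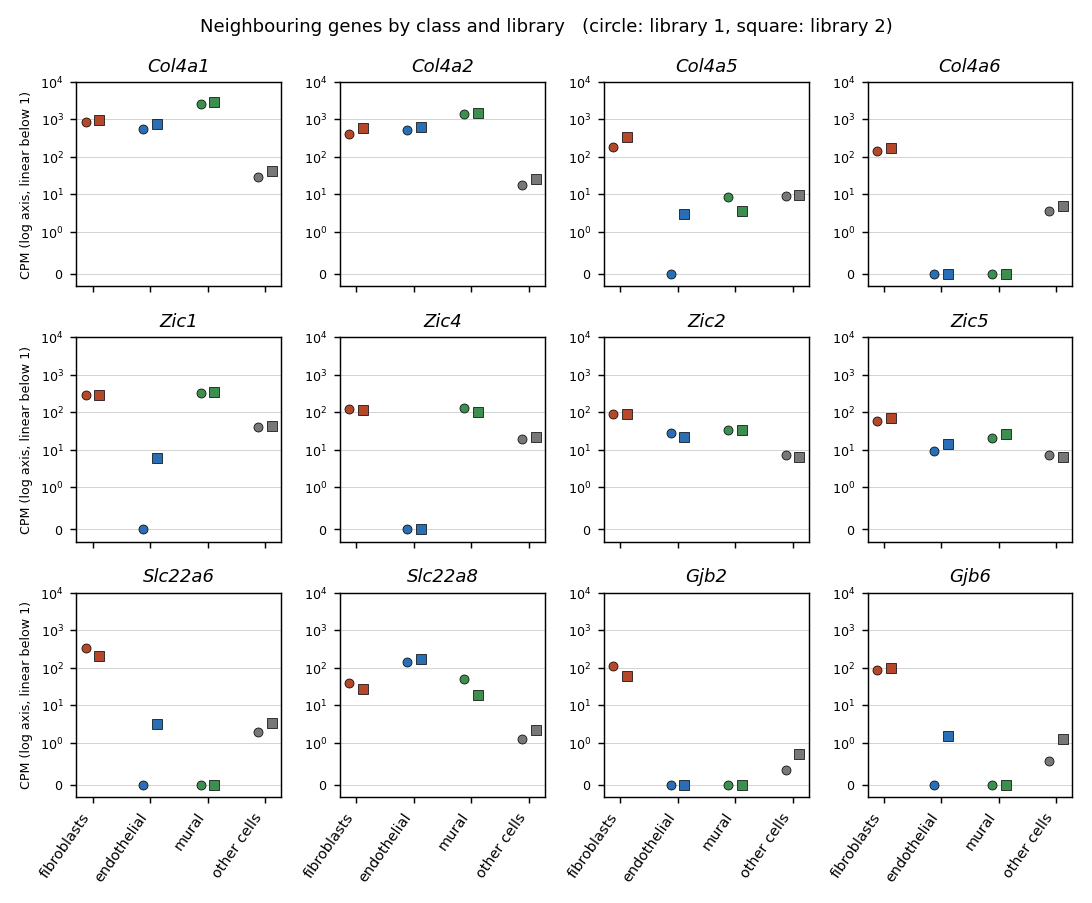
Summed level (CPM, log axis, linear below 1) of neighbouring and related genes by class, circles for library 1 and squares for library 2. Col4a5 and Col4a6 stand highest in fibroblasts and Col4a1 and Col4a2 in mural cells, Zic1 and Zic4 are alike in fibroblasts and mural cells, and Slc22a8 is highest in endothelial cells.

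Secreted signals were the largest list. Of 59 genes 57 were tested, and 32 were higher in fibroblasts than in the other cells and 4 lower. Against endothelial cells 30 were higher and 5 lower, and against mural cells 25 were higher and 1 lower. The medians were 1.71, 2.58 (2.20 at the bounds) and 2.97 (1.88 at the bounds). *Cxcl12*, the chemokine that guides Cajal-Retzius cells and interneurons along the meninges, stood at 1226 and 1246 CPM in fibroblasts, at 56.8 and 90.1 in endothelial cells, at 34.1 and 22.4 in mural cells and at 22.3 and 29.7 in the other cells. The fibroblast level hardly differed between the libraries, and the log2 difference was 4.11 ± 0.22 against endothelial cells and 5.63 ± 0.29 against mural cells (edgeR adjusted p = 8.6e-74 and 5e-82). *Ptn* and *Mdk*, the related heparin-binding growth factors pleiotrophin and midkine, stood at 6578 and 6595 and at 880.5 and 1033 CPM, and both were called higher than in all 3 other classes.

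Bone morphogenetic proteins, which pattern the cortex from its edges, were shared unequally with the vessels. *Bmp7* stood at 176 and 190.0 CPM and had no count in endothelial or mural cells, at least 59.2-fold and 31.0-fold higher. *Bmp4* stood at 60.4 and 43.2 CPM and also had no count in either, at least 15.8-fold and 8.26-fold higher. *Bmp6* stood at 512 and 354 CPM, with 3 counts in endothelial and 1 in mural cells. *Bmp5* stood apart, with 101 and 108 CPM in fibroblasts, 98.0 and 82.0 in mural cells and no count in endothelial cells, and its log2 difference of 0.37 ± 0.37 against mural cells was not called. Among Wnt ligands, *Wnt6* stood at 121 and 55.6 CPM with no count in either vessel class, and *Wnt4* at 219 and 131 CPM.

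*Igf2*, insulin-like growth factor 2, was called higher against endothelial and other cells and not against mural cells. It stood at 1436 and 1299 CPM in fibroblasts and at 1138 and 1237 in mural cells, a log2 difference of 0.37 ± 0.17 that was not called, against 6.31 and 15.5 in endothelial cells and 11.8 and 26.9 in the other cells. *Igf2r*, the receptor that clears the ligand, was lower in fibroblasts (74.8 and 77.2 CPM) than in mural cells (226 and 235), with a log2 difference of -1.45 ± 0.27. *Dkk2*, a Wnt inhibitor, stood at 74.8 and 98.9 CPM in fibroblasts and 162 and 171 CPM in mural cells. *Il34*, a ligand that microglia need, stood at 46.0 and 66.4 CPM in fibroblasts and 115 and 138 CPM in mural cells, and neither was called although both libraries had the lower value in fibroblasts.

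Retinoid genes follow vitamin A from its binding protein to retinoic acid and its receptors. Of 18 listed genes *Aldh1a2* was a rule gene and 16 others were tested, of which 11 were higher in fibroblasts than in the other cells, 7 than in endothelial cells and 6 than in mural cells. *Ttr*, a carrier made by the choroid plexus, was called lower than in the other cells (2.88 and 21.6 against 7.45 and 845 CPM), with log2 differences of -0.79 in library 1 and -5.24 in library 2. In library 2 it was found in 21.2% of the other cells against 0.289% in library 1. No member was lower in the remaining comparisons. The medians were 2.34, 3.14 (2.20 at the bounds) and 1.60 (1.44 at the bounds). *Rdh10*, which makes retinal, stood at 69.1 and 80.3 CPM, with 3.30 ± 0.54 against endothelial cells and an uncalled 1.23 ± 0.46 against mural cells.

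The binding proteins of retinoic acid itself were nearly absent from the vessel classes. *Crabp2* stood at 250.3 and 139 CPM in fibroblasts, with 1 count in endothelial cells and none in mural cells, at least 29.8-fold higher than in the latter. It was found in 15 of 25 and 23 of 64 fibroblasts, and the 5 highest cells held 81.6% and 56.7% of its UMIs. *Crabp1* stood at 31.7 and 37.1 CPM, with 1 count in endothelial cells and none in mural cells, at least 5.90-fold higher. *Rarb*, a receptor that retinoic acid itself induces, stood at 132 and 161 CPM in fibroblasts, at 3.16 and 0 in endothelial cells and at 38.4 and 59.6 in mural cells. *Stra6*, the retinol uptake receptor, had 66.2 and 61.8 CPM in fibroblasts and 34.7 and 32.6 in endothelial cells, 1.0 ± 0.46 and not called, with no count in mural cells.

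Transcription factors of mesenchyme are shared by fibroblasts and the cells that wrap vessels. Of 49 listed genes *Foxc1* was a rule gene, 10 were below the filter and 38 were tested. In fibroblasts 27 were higher and 3 lower than in the other cells, 19 higher and 9 lower than in endothelial cells, and 8 higher and 5 lower than in mural cells, where 25 were not called. The medians were 3.42, 2.92 (1.95 at the bounds) and 0.54. *Foxd1* stood at 149.6 and 182 CPM in fibroblasts and 162 and 104 in mural cells, with no count in endothelial cells. *Twist1* stood at 86.3 and 80.3 CPM and 42.6 and 48.4 in the same 2 classes, and *Foxc2* at 31.7 and 30.9 CPM and 12.8 and 7.45, and none of the 3 was called between them. *Tbx18*, a T-box factor of pericytes and their kin, was called at 0.86 ± 0.26 against mural cells, with 224 and 259 CPM in fibroblasts and 158 and 138 in mural cells.

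A small group was near absent from mural cells. *Osr1* stood at 199 and 137 CPM in fibroblasts, with 1 mural count and no endothelial count. *Msx1*, a target of bone morphogenetic proteins, stood at 83.4 and 97.3 CPM with 3 mural counts, and *Tfap2b* at 80.6 and 85.0 CPM with 2 mural counts. *Ebf1*, *Zeb2*, *Foxf2*, *Foxs1* and *Foxq1* were lower than in mural cells, and *Ebf1* stood at 89.2 and 75.7 CPM in fibroblasts and 1905 and 1900.3 in mural cells, a log2 difference of -4.39 ± 0.22. The most abundant members, *Id3* (437 and 457 CPM), *Foxp1* (406 and 462 CPM) and *Foxp2* (296 and 321 CPM), were not all particular to fibroblasts. *Foxp1* was called in none of the 3 comparisons, and *Foxp2* was higher than in both vessel classes but was not called against the other cells (333 and 319 CPM).

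The Zic family of zinc-finger factors, known for its part in the meninges, differed by gene pair. *Zic1* and *Zic4* overlap on chromosome 9, and *Zic1* stood at 282 and 292 CPM in fibroblasts, at 324 and 343 in mural cells and at 0 and 6.22 in endothelial cells. *Zic4* stood at 124 and 117 CPM in fibroblasts, at 132 and 104 in mural cells and at 0 in endothelial cells, and neither gene was called between fibroblasts and mural cells (-0.06 ± 0.21 and 0.19 ± 0.30). *Zic2* and *Zic5*, 9725 bases apart on chromosome 14, were called higher in fibroblasts than in all 3 other classes. *Zic2* stood at 89.2 and 88.0 CPM in fibroblasts and 34.1 and 33.5 in mural cells, and *Zic5* at 60.4 and 71.1 CPM and 21.3 and 26.1.

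Transporters and junction genes, which serve the exchange between brain and cerebrospinal fluid, were mostly higher in fibroblasts. Of 30 listed genes 29 were tested, and 23 were higher than in the other cells, 21 than in endothelial cells and 18 than in mural cells, with 1, 5 and 2 lower. The medians were 4.81, 5.74 (4.33 at the bounds) and 5.15 (2.43 at the bounds). *Slc6a13*, a transporter of GABA and taurine, stood at 460.4 and 357 CPM in fibroblasts, with 2 counts in endothelial and 2 in mural cells, and at 2.97 and 5.04 in the other cells, a log2 difference of 6.72 ± 0.22 from the latter. *Slc22a6* and *Slc22a8*, organic anion transporters 6160 bases apart on chromosome 19, differed. *Slc22a6* stood at 331 and 212 CPM in fibroblasts with 2 counts in endothelial and none in mural cells, at least 42.5-fold higher than in the latter. *Slc22a8*, a transporter of the blood-brain barrier, stood at 40.3 and 27.8 CPM in fibroblasts and 139 and 169 in endothelial cells, -2.19 ± 0.35.

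Connexins, the channels between joined cells, were high together. *Gja1* stood at 745 and 647 CPM in fibroblasts, higher than in endothelial and mural cells by 3.55 ± 0.23 and 6.62 ± 0.38. *Gjb2* stood at 109 and 60.2 CPM with no count in either vessel class, at least 24.8-fold and 13.0-fold higher, and its neighbour *Gjb6*, 18598 bases away on chromosome 14, at 89.2 and 97.3 CPM. *Igfbp2*, a carrier of insulin-like growth factors, was the most abundant of the list at 2662 and 2465 CPM in fibroblasts, against 129 and 141 in endothelial and 51.1 and 108 in mural cells. *Vtn*, vitronectin, was lower in fibroblasts (1203 and 701 CPM) than in mural cells (1815 and 1263) and had 3 counts in endothelial cells. *Cdh2*, N-cadherin, was called lower in fibroblasts in all 3 comparisons.

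*Ptgds*, the prostaglandin D synthase of the leptomeninges, reached 1151 and 1639 CPM in fibroblasts, but few cells carried it. It was found in 11 of 25 and 20 of 64 fibroblasts, and the 5 highest cells held 97.5% and 94.2% of its UMIs. A UMI of *Ptgds* was also found in 6.10% and 16.9% of the other cells, at median depths of 5650 and 4907.5 UMIs. After each cell was thinned to 1500 UMIs the shares were 24% and 17.2% in fibroblasts and 1.97% and 6.34% in the other cells. The summed level of *Ptgds* therefore rests on a handful of cells in each library.

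**Figure D3:**
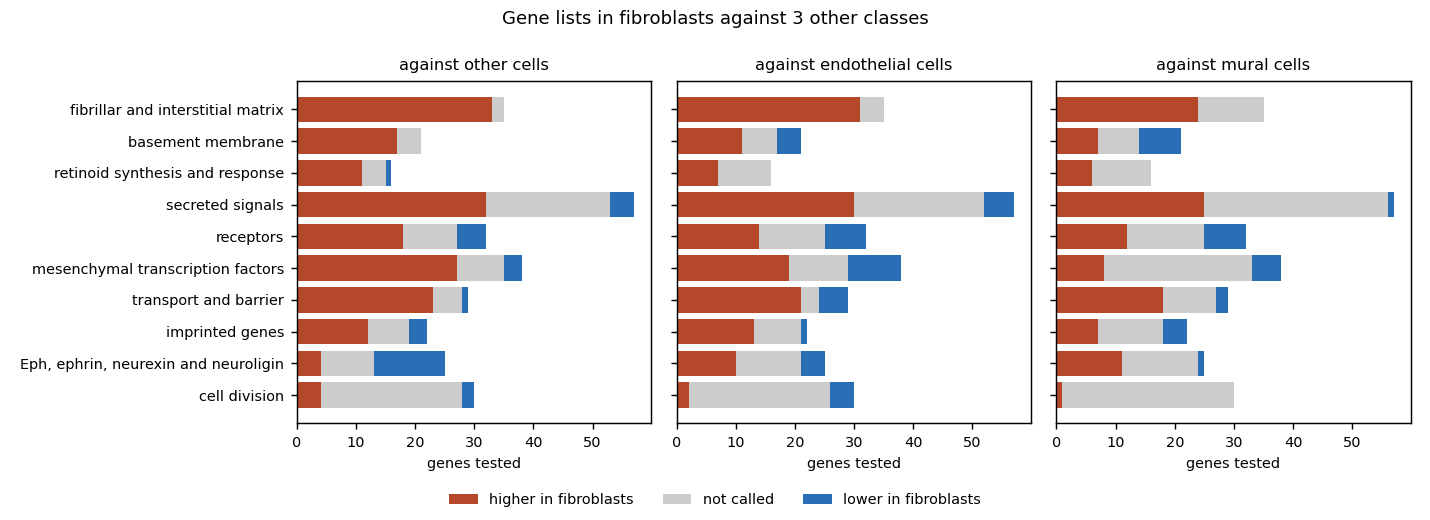
Number of genes tested in each of 10 lists that were higher (red), not called (grey) or lower (blue) in fibroblasts against other cells, endothelial cells and mural cells, by edgeR at adjusted p under 0.05. Of the 35 matrix genes 33, 31 and 24 are higher and none is lower, and basement membrane genes split against mural cells 7 to 7. Of the 30 cell division genes 4, 2 and 1 are higher, against 13.9%, 7.70% and 4.99% over all genes. Lower are 2, 4 and 0, against 16.8%, 6.73% and 3.73%.

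Receptors showed both directions against the vessel classes. All 32 listed genes were tested, and 18 were higher and 5 lower in fibroblasts than in the other cells, 14 and 7 than in endothelial cells, and 12 and 7 than in mural cells, with medians of 1.38, 0.87 and 0.91. The shares over all genes were 13.9% and 16.8%, 7.70% and 6.73%, and 4.99% and 3.73% in the same order. The 5 lower than in the other cells are near that share. The 2 receptors of platelet-derived growth factor divided the mesenchyme. *Pdgfra* stood at 167 and 215 CPM in fibroblasts and had no count in endothelial or mural cells, at least 63.4-fold and 33.2-fold higher, while *Pdgfrb* stood at 51.8 and 77.2 CPM in fibroblasts and 703 and 667 in mural cells, -3.22 ± 0.24. *Ngfr*, the neurotrophin receptor p75, was low, at 11.5 and 34.0 CPM, and was not called against mural cells. The abundant *Itgb1* (406 and 359.9 CPM) was lower than in mural cells (-0.72 ± 0.19 in log2) and higher than in the other cells (1.76 ± 0.18), and *Igf1r* (213 and 224 CPM) lower than in endothelial cells (-1.50 ± 0.19) and higher than in mural cells (1.13 ± 0.25). *Fgfr2* (204 and 224 CPM) was called only against mural cells (1.71 ± 0.28).

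Imprinted genes, which are expressed from 1 parental copy and often bear on growth, were higher for part of the list. Of 23 genes 22 were tested, 12 higher and 3 lower than in the other cells, 13 and 1 against endothelial cells, and 7 and 4 against mural cells, with medians of 1.09, 2.17 and 0.44. *Cdkn1c*, a growth-restraining inhibitor of cyclin-dependent kinases, was the most abundant at 1870.3 and 1429 CPM in fibroblasts, against 114 and 106 in endothelial cells, 200.3 and 231 in mural cells and 75.7 and 83.4 in the other cells. Its log2 difference was 3.98 ± 0.21 and 3.08 ± 0.20 against the 2 vessel classes (edgeR adjusted p = 4.5e-77 and 4.7e-48). *H19*, the noncoding neighbour of *Igf2* on chromosome 7, stood at 512 and 443 CPM and, unlike *Igf2*, was called higher than in mural cells (192 and 138 CPM), by 1.69 ± 0.22. The 5 highest fibroblasts of each library held 62.9% and 57.1% of its UMIs. *Peg3* stood at 325 and 306 CPM, 5.46 ± 0.43 above mural cells, whereas *Meg3* (535 and 436 CPM) was below them (-0.84 ± 0.18). *Nnat*, neuronatin, stood at 799.9 and 811 CPM, below the other cells (-0.54 ± 0.17) and above both vessel classes.

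Contact signals between cells that the study examined in the cortex, ephrins, Eph receptors, neurexins and neuroligins, differed in direction with the class compared. All 25 were tested, 4 higher and 12 lower than in the other cells, 10 and 4 against endothelial cells, and 11 and 1 against mural cells, with medians of -1.11, 1.71 and 1.60. Over all genes the shares were 13.9% and 16.8%, 7.70% and 6.73%, and 4.99% and 3.73% in the same order. The 4 higher than in the other cells and the 1 lower than in mural cells are near these shares. *Efnb2*, an ephrin ligand, stood at 74.8 and 83.4 CPM against 180.2 and 178 in the other cells, -1.11 ± 0.22, and *Epha4*, a receptor for it, at 95 and 35.5 CPM against 299.5 and 239, -2.11 ± 0.23. *Nlgn1* stood at 57.5 and 151 CPM against 917 and 912, and *Nrxn3* at 2.88 and 37.1 CPM against 3425 and 3291. The 4 members above the other cells were *Epha7*, *Efna5*, *Efnb1* and *Ephb4*, and *Epha7* was the most abundant at 216 and 358 CPM in fibroblasts against 115 and 105 in the other cells, 41.0 and 6.22 in endothelial cells and 12.8 and 22.4 CPM in mural cells. *Efna5* stood at 189.9 and 176 CPM and *Efnb1* at 77.7 and 81.9 CPM, both called higher in all 3 comparisons. *Nrxn3* was lower than in mural cells, with a log2 difference of -2.25 ± 0.34. With 1 UMI of an absent gene allowed in the rule, a setting picked once the data had been seen, the difference was 0.68 and *Nrxn3* was called higher, so no direction is given for it.

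Cell division genes were in most cases called no more often than all genes. Over all genes the shares were 13.9% higher and 16.8% lower than in the other cells, 7.70% and 6.73% against endothelial cells, and 4.99% and 3.73% against mural cells. Of 31 listed genes 30 were tested, and 4 were higher and 2 lower than in the other cells, 2 and 4 against endothelial cells, and 1 and 0 against mural cells, which is below the share over all genes except for the members lower than in endothelial cells (*Cdk1*, *Mcm3*, *Ccnd1* and *Cdkn1a*). *Cdkn1c*, an inhibitor of division, was higher in each of the 3 comparisons. *Ccnd2* stood at 161 and 161 CPM, *Top2a* at 69.1 and 107 CPM and *Pcna* at 95 and 74.1 CPM. At least 3 of 8 mitosis genes were found in 5 of 25 and 7 of 64 fibroblasts, which is 20% (exact interval 6.83 to 40.7%) and 10.9% (4.51 to 21.2%). With fewer than 20 such cells in a library no test was made. In the 12 dividing cells *Igf2* stood at 873 and 824 CPM, against 1566 and 1398 CPM in the others, and *Cxcl12* at 1194 and 1155 CPM in dividing cells and 1233 and 1266 CPM in the others. The dividing cells had median depths of 14318 and 13041 UMIs and the others 12313.5 and 8785.

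The genes furthest above the other cells, among those with at least 50 CPM in the fibroblasts of both libraries, were *Ccn3*, *Gjb2*, *Osr1*, *Col3a1*, *Thbd*, *Aebp1*, *Fgfbp1* and *Efemp1*. *Ccn3*, a secreted matricellular protein, stood at 138 and 134 CPM against 0.365 and 1.13 CPM, a log2 difference of 7.55 ± 0.39. *Thbd*, thrombomodulin, stood at 69.1 and 55.6 CPM against 0.235 and 0.883, *Aebp1* at 458 and 344 against 2.68 and 4.54, *Fgfbp1* at 80.6 and 149.8 against 0.782 and 1.33, and *Efemp1*, a fibulin, at 66.2 and 52.5 against 0.235 and 0.883 CPM. In the other cells all 8 genes were higher in library 2 by more than 1.5 times, and the cells with 3 or more fibroblast genes held between 38.3% (*Thbd*) and 72.5% (*Osr1*) of the counts of the 8 genes there. Among the genes furthest below were *Dlx6os1*, a noncoding RNA of GABAergic neurons, *Cadps* and *Tmem108*, all at 0 in fibroblasts, with *Tmem108* at least 102-fold lower. These zeros depend on the rule, which bars cells with *Gad2* or *Neurod6*: with 1 UMI of an absent gene allowed, an alternative chosen after seeing the data, the 3 genes were counted in fibroblasts and their log2 differences were -4.42, -5.09 and -5.50.

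Against endothelial cells the furthest above were *Fbn2*, *Tmem132c*, *Sidt1*, *Lama2*, *Ranbp3l*, *Tbx18*, *Col6a1* and *Bmp7*, which had no count in endothelial cells. *Tmem132c* stood at 291 and 409 CPM, at least 118-fold higher, *Sidt1* at 302 and 259 CPM and *Ranbp3l* at 302 and 247 CPM. The furthest below were *Slc38a5*, *Ptprb*, *Mfsd2a* and *Icam2*, genes of brain endothelium, all at 0 in fibroblasts, with *Mfsd2a*, a lipid transporter of the blood-brain barrier, at 205 and 298 CPM in endothelial cells and at least 88.8-fold lower in fibroblasts. Against mural cells the furthest above were *Bnc2*, *Mfap4*, *Ranbp3l*, *Slc22a6*, *Pdgfra*, *Crabp2*, *Bmp7* and *Ecrg4*, which had no mural count, and *Bnc2*, a zinc-finger factor of mesenchyme, stood at 394 and 359.9 CPM, at least 62.4-fold higher. The furthest below were *Mmp9*, *Rgs4*, *Itga4* and *Mcam*, at 0 in fibroblasts, and *Mcam*, an adhesion molecule of vessel walls, stood at 187 and 212 CPM in mural cells.

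The fibroblasts were also compared among themselves. Genes of the pia, the arachnoid and the dura were all present in the sums: the 6 pia genes at 2046 and 2599.5 CPM, the 8 arachnoid genes at 1093 and 636 CPM and the 8 dura genes at 1068 and 959 CPM. The arachnoid sum includes 311 and 222 CPM of *Aldh1a2*, a gene of the rule, so that this sum, and the split of cells by *Aldh1a2* below, draw in part on values that chose the cells. The other cells held 346 and 340.2 CPM of the dura list, mostly *Foxp2* (333 and 319 CPM, against 296 and 321 CPM in fibroblasts), and 1 fibroblast of library 1 held 224 of the 371 dura UMIs of that library. Of 6 pia genes 5 were higher than in the other cells, 5 than in endothelial and 3 than in mural cells. The counts were 6, 5 and 5 for the 6 tested arachnoid genes and 7, 4 and 4 for the 8 dura genes, with none lower. Fibroblasts with at least 2 of *Aldh1a2*, *Crabp2* and *Wnt6* numbered 17 of 25 in library 1, 68.0% (exact interval 46.5 to 85.1%), and 20 of 64 in library 2, 31.25% (20.2 to 44.1%), and are called arachnoid-type below. After thinning to 1500 UMIs the shares were 16% and 6.25%. Fibroblasts with none of the 3 numbered 4 and 17, and those with 1 of the 3 numbered 4 and 27. The median depth was 8136.5 and 7415 UMIs in the cells with none of the 3, 13119.5 and 9959 in those with 1 and 14318 and 11430 in the arachnoid-type cells, and the part of depth in the differences below was not tested. Since fewer than 20 cells of a kind were present in at least 1 library, no test was made, and the levels below are descriptions from few cells.

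Of the 6 pia genes, *S100a6*, *Lama1*, *Rdh10* and *Cxcl12* stood higher in both libraries in the fibroblasts that lacked the arachnoid genes, while *Ngfr* and *Col15a1* differed between libraries or rested on few counts. *Lama1* stood at 607 and 599 CPM in these and at 151 and 135 CPM in the arachnoid-type cells, *S100a6*, a calcium-binding protein, at 1795 and 1087 against 325 and 515 CPM, and *Cxcl12* at 2086 and 1746 against 1037 and 813 CPM. *Col3a1* stood at 2297 and 2645 against 1831 and 1668 CPM, and at 1394 and 2435 CPM in the cells with 1 of the 3 genes. Arachnoid-type cells stood higher in both libraries in *Cldn11*, a claudin of tight junctions (321 and 252 against 26.4 and 51.4 CPM), in *Gjb2* (151 and 105 against 0 and 42.8 CPM) and in *Gjb6* (114 and 186 against 0 and 8.56 CPM). *Ptgds* stood at 1627 and 4045 against 0 and 42.8 CPM, and without the highest arachnoid-type cell of each library at 440.2 and 2413 CPM. With the cells split by *Crabp2* and *Wnt6* alone, which the rule did not use (an alternative chosen after seeing the data), the 18 and 29 cells with either gene and the 7 and 35 with neither kept the direction in both libraries for *S100a6*, *Lama1*, *Rdh10*, *Cxcl12*, *Col3a1*, *Cldn11*, *Gjb2*, *Gjb6* and *Ptgds*, with median depths of 14734.5 and 10934 UMIs against 10570 and 8338. *Lama1* then stood at 629 and 493 CPM in the cells with neither gene against 136 and 179.7 CPM, and *Gjb2* at 13.4 and 32.1 against 136 and 81.7 CPM. Over cells, Spearman's rho between *Lama1* and *Crabp2*, each as UMIs per 10000, was -0.61 and -0.43 in libraries 1 (25 cells) and 2 (64 cells), between *Lama1* and *Cxcl12* 0.75 and 0.44, and between *Ptgds* and *Gjb2* 0.75 and 0.38. These are descriptions, since cells of 1 library share its RNA background and differ in depth.

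*H19*, singled out after its values were seen, was found in fewer of these cells than its neighbour *Igf2*. It was found in 33 of 37 arachnoid-type cells and in 2 of 21 cells with none of the 3 genes, and stood at 553 and 797 against 0 and 163 CPM. *Igf2* was found in 37 of 37 and 20 of 21 of the same cells, at 1619 and 1506 against 554 and 1173 CPM. Both genes thus stood higher in the arachnoid-type cells in both libraries, with no test. *Cdkn1c* stood at 2128 and 2450.2 against 396 and 616 CPM. Split by *Crabp2* and *Wnt6* alone, *H19* stood at 623 and 694 against 107 and 114 CPM and *Cdkn1c* at 2276 and 2132 against 388 and 507 CPM. By the same split *Igf2* stood at 1554 and 1356 against 1004 and 1225 CPM. In the cells with 1 of the 3 genes, *H19* stood at 658 and 228 CPM and *Cdkn1c* at 1754 and 808 CPM. In library 1 this was 4 cells, of which 1 held 34 of the 42 *H19* UMIs and 1 held 98 of the 112 *Cdkn1c* UMIs. In the fibroblasts with *Mgp*, described next, *H19* stood at 773 and 1023 CPM and *Cdkn1c* at 2261 and 2869 CPM, and 1 cell held 98 of their 193 *Cdkn1c* UMIs in library 1. *Trpm3*, a cation channel gene named after its values were seen, stood at 3474 and 5342 against 0 and 59.9 CPM, but the 5 highest fibroblasts of each library held 74.1% and 85.7% of its UMIs, and 1 cell of library 2 held 801.

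**Figure D4:**
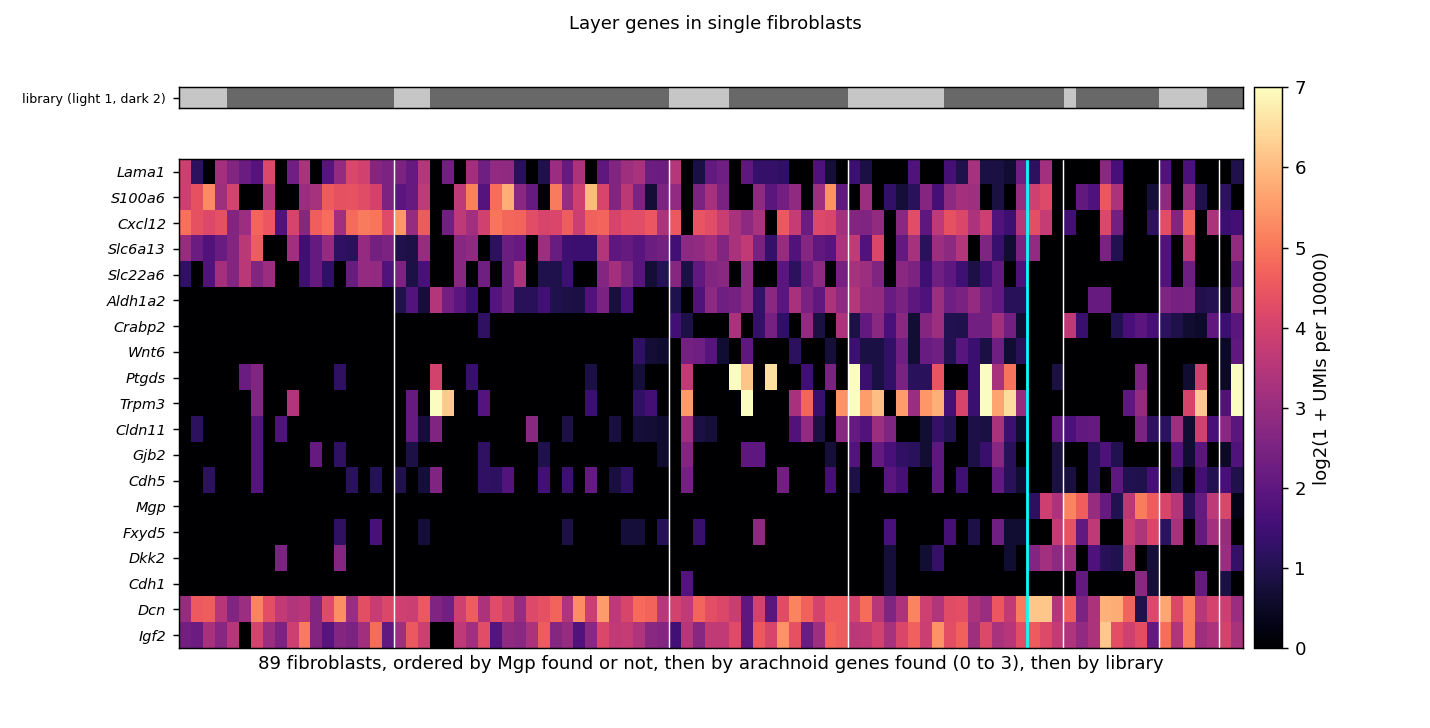
Level of 19 genes (rows, log2 of 1 plus UMIs per 10000) in each of the 89 fibroblasts (columns), ordered by Mgp found or not (right of the cyan line: found, 18 cells), then by the number of the 3 arachnoid genes found and by library. Lama1, S100a6 and Cxcl12 fade from left to right as Crabp2, Ptgds and Trpm3 appear, and the cells with Mgp hold most of Dkk2 and Cdh1, much Fxyd5 and little Slc22a6.

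A further set of fibroblasts carried *Mgp*, the matrix Gla protein that keeps cartilage and vessel walls from calcifying and marks the dura. It was found in 5 of 25 and 13 of 64 fibroblasts, 20% and 20.3%, against 0.306% and 0.725% of the other cells, whose median depths are given above. After thinning to 1500 UMIs the shares were 8% and 17.2% against 0.102% and 0.268%. *Mgp* stood at 1546 and 1052 CPM in the cells that had it. This set was singled out after the values were seen. Cells with *Mgp* had median depths of 17888 and 9903 UMIs and those without it 12313.5 and 8704. *Dkk2*, a Wnt inhibitor, was found in 11 of 18 cells with *Mgp* and 6 of 71 without, *Fxyd5* in 12 of 18 and 15 of 71, and *Cdh1*, E-cadherin, in 5 of 18 and 2 of 71. *Cdh1* is of the arachnoid list, as are *Cldn11* (13 of 18 and 31 of 71) and *Dpp4* (5 of 18 and 6 of 71). *Aldh1a2* (9 of 18 and 48 of 71) and *Wnt6* (2 of 18 and 25 of 71) of that list went the other way. The set was thus not marked by dura genes alone. In library 1 a single cell held 98 of the 132 *Mgp* UMIs, all 21 *Dkk2* UMIs and 55 of the 73 *Fxyd5* UMIs of the set. The transporter genes went the other way. *Slc6a13* was found in 6 of 18 cells with *Mgp* and 63 of 71 without, and *Slc22a6* in 3 of 18 and 54 of 71. In levels, *Slc22a6* stood at 105 and 80.0 CPM in cells with *Mgp* and at 404 and 260.3 CPM in those without. All 14 *Slc22a6* UMIs of the cells with *Mgp* in library 2 lay in 1 cell with a single *Mgp* UMI, and 7 of the 9 in library 1 lay in a cell with 2. *Cxcl12* stood at 832 and 389 against 1354 and 1564 CPM, and *Lama1* at 70.3 and 109 against 298 and 392 CPM. The cells with *Mgp* were lower in both libraries for each of these 3 genes, with no test.

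*Ecrg4* and *Bnc2*, which the comparison with mural cells had named, had most of their UMIs in cells with *Mgp*. *Ecrg4* stood at 996 and 457 CPM with *Mgp* and at 22.9 and 6.35 CPM without, but 1 cell held 84 of the 85 UMIs in library 1, and without it the level there was 17.1 CPM, no higher than without *Mgp*. *Bnc2* stood at 879 and 1137 CPM with *Mgp* and at 236 and 72.0 CPM without. The 5 highest fibroblasts of each library held 96.7% and 88.0% of the *Ecrg4* UMIs and 86.1% and 64.4% of those of *Bnc2*. Their summed levels thus describe few of the 89 cells, in contrast to *Col3a1*, found in 25 of 25 and 62 of 64 cells. The arachnoid-type gene *Crabp2* was found in 13 of 18 cells with *Mgp* and 25 of 71 without, so the sets overlapped.

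Endothelial genes were near 0 in fibroblasts, with *Cdh5* as the exception, which was singled out after its values were seen. *Cdh5*, VE-cadherin, which joins endothelial cells, stood at 83.4 and 83.4 CPM in fibroblasts, at 268 and 329 in endothelial cells, at 0 in mural cells and at 2.35 and 4.52 in the other cells. As it is 1 of the genes that chose the endothelial class, these values are given with no test. It was found in 11 of 25 and 27 of 64 fibroblasts (44.0% and 42.2%), and in 0.696% and 1.33% of the other cells. Fibroblasts with *Cdh5* had a median depth of 11708.5 UMIs and those without it 8785. After thinning to 1500 UMIs the shares were 8% and 10.9% against 0.153% and 0.427%. The other endothelial genes did not come with it. These genes too chose the endothelial class, so their gaps to endothelial cells are set in part by the choice of cells. *Pecam1* stood at 0 and 4.63 CPM in fibroblasts against 275 and 384 in endothelial cells, *Kdr* at 5.75 and 0 against 505 and 668, *Flt1* at 5.75 and 3.09 against 508 and 1159 and *Esam* at 0 and 1.54 against 514 and 482 CPM, and *Cldn5* was at 0 by the rule. *Cdh5* was found in 12 of 18 cells with *Mgp* and 26 of 71 without, and *Dpp4* in 9 of 38 cells with *Cdh5* and 2 of 51 without.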

How the data were processed

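The data were droplet single-cell RNA libraries (10x Genomics 3′ v3.1) of papain-dissociated cortex, 1 per sample. The deposited matrices hold raw UMI counts per gene and barcode, which the authors made with Cell Ranger (7.1.0 per the file headers, 7.0.0 in the submitters' processing notes) on build mm10 and filtered to cell barcodes, and the annotation version is not given in the sources used here. Barcodes with 1500 to 60000 UMIs and under 10% mitochondrial UMIs were kept, and doublets were scored with Scrublet in scanpy 1.11.5 but removed only as an alternative. The intervals and bounds cover counting error only.

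Fibroblasts, endothelial cells and mural cells were taken by marker genes. Endothelial cells needed *Cldn5* and at least 2 other endothelial genes, mural cells *Rgs5* and at least 2 other mural genes. Both needed fewer than 3 of the 6 fibroblast genes, no *Neurod6* or *Gad2* and none of the other's leading gene, and all remaining kept cells were the other cells. Counts were added up over the cells of each class and library, which gave 8 sums, a gene was tested where 2 or more of the sums reached 10 counts, and edgeR's quasi-likelihood test (edgeR 4.0.16, R 4.3.3) with TMM normalization and Benjamini-Hochberg adjustment over all genes was used with the library as a term. The fit left 3 residual degrees of freedom. It was tested on simulated counts with 200 changed genes. Members and gene lists were chosen with earlier results of these data known. Genes named in the text were a fixed set of meningeal genes, in each comparison the 8 furthest higher with at least 50 CPM in fibroblasts and the 4 furthest lower, and the 4 most abundant of each list. Some genes that this rule names are not reported here. Others are said to have been singled out after their values were seen, or are members of a list named as examples of its counts.

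Both libraries carry a replicate number in all classes, and the classes of 1 number come from the same library, so the library term is the pairing. Alternatives were DESeq2 1.42.0, its size factors in edgeR, no library term, no count filter, at least 4 markers, doublets removed, under 5% mitochondrial UMIs, only the 2 compared classes, each library left out, 1 UMI of the absent genes allowed and fibroblasts split without *Aldh1a2*, the last 2 chosen after seeing the data. Promoter windows were read from RefSeq tables of GRCm38.p6.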

Additional observations from a re-analysis of the deposited data

How the results depend on the processing

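With under 5% mitochondrial UMIs the genes higher in fibroblasts numbered 1099 (other cells), 540 (endothelial) and 338 (mural), and those lower 1412, 479 and 240, from 5 and 27 fibroblasts. Under DESeq2's Wald test 1753 genes were lower than in the other cells, and 57.9% of the calls were higher, against 45.2% in the main test. The other counts stayed within 1.5 times of the main ones. Without the replicate block of the library, 2903 genes were higher and 3482 lower than in the other cells, 1565 and 1387 against endothelial and 973 and 724 against mural cells. Without the count filter the median over all genes moved by -0.106 against the other cells.

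The mean share of fibroblasts, 0.522%, was 0.343% under 5% mitochondrial UMIs and 0.741% with 1 UMI of an absent gene allowed (126 cells, chosen after seeing the data), and 0.419 to 0.625% with 1 library left out. The share of dividing cells, 15.5%, was 23.4% with at least 2 of 8 genes and 5.91% after thinning, and 10.9 to 20% with 1 library left out. The arachnoid-type share, 49.6%, was 11.1% after thinning and 31.25 to 68% with 1 library left out. *Nrxn3* against mural cells reversed, to 0.68, with 1 UMI of an absent gene allowed and was then called higher, and DESeq2 did not call it. The cause of these changes was not tested. Of the named genes' other values under the alternatives that kept both libraries, 927 kept their side of the threshold and, where called, their direction. A further 5 passed the threshold and 10 no longer did. With 1 library left out, no value of a called gene reversed, and 88 of 210 values moved. A change of direction in a gene that was not called, such as *Foxd1* against mural cells, was not counted as a reversal. Tests of dividing and of arachnoid-type cells, and their alternatives, could not be run, since each subset needed at least 20 cells in each library. With 25 and 64 fibroblasts, genes of a few CPM were beyond the depth.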

Other observations

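Outside the filter on cells, 6 barcodes of library 1 and 34 of library 2 met the gene rule. Of these, 6 and 31 had at least 10% mitochondrial UMIs, with medians of 18.8% and 16.1%, and 0 and 9 had under 1500 UMIs. Their summed *Ptgds* level was 4780.4 and 9137 CPM, against 1151 and 1639 CPM in the kept fibroblasts, from 148 and 1260 UMIs. *Col3a1* stood there at 1001 and 1922 CPM, *Igf2* at 484 and 587 CPM, and *Cxcl12* at 226 and 783 CPM from 7 and 108 UMIs. In both libraries these barcodes had more *Ptgds* and less *Igf2* and *Cxcl12* than the kept fibroblasts, with no test, and the part of the mitochondrial share in this was not tested.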
